A study of Mus musculus with 24 samples.

Results

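The aminoacyl-tRNA synthetases were followed as 36 genes, 20 whose enzymes work in the cytosol and 16 whose enzymes work in mitochondria, of 16604 genes used from an expression table of EMS404 cells. They were chosen by name: each was found through the Ensembl identifier that the GENCODE M21 annotation pairs with its symbol (Mars1 is listed there as Mars), and symbols ending in 2 were taken as mitochondrial. EMS404 is a hepatic stellate cell line from C57Bl6 mouse liver, immortalized with SV40 and expressing human TLR4, and every group carried these features. RNA sequencing covered 24 libraries in 8 groups of 3, given by the design statement as biological triplicates of 1 line, so p-values measure the spread between cultures of that line. The groups were SR9011+TGFb, CLK8+TGFb, SB431542+TGFb, TGFb alone, SR9011 alone, CLK8 alone, SB431542 alone, and vehicle. SR9011 is an agonist of the nuclear receptor REV-ERB alpha, a repressor in the circadian clock. CLK8 disturbs the pairing of the clock activators CLOCK and BMAL1, and SB431542 inhibits the TGFb receptor kinase. Compound was given for 24 h, and the groups with TGFb then had a further 24 h with compound and TGFb at 10 ng/mL. The sources used here do not give the doses of the compounds or say if cells without TGFb stayed in culture for the second period, so TGFb and time in culture cannot be told apart.

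Each synthetase joins an amino acid to its tRNA, the step that sets which amino acid a codon stands for. Cytosolic enzymes supply the cytosolic ribosomes, and the mitochondrial ones, also coded in the nucleus, are imported to supply the mitochondrial ribosomes. Many cytosolic synthetase genes are known targets of ATF4, the transcription factor that is translated in the integrated stress response when phosphorylated eIF2 lowers general translation. Collagen, which activated stellate cells make in quantity, is rich in glycine and proline.

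Values are FPKM, read fragments scaled by transcript length and library size. They summed to 503920 to 610024 per library over the genes used, and the number of reads behind them is unknown. A rough estimate of relative depth, from the lowest values of 61 genes with many zeros, gave 0.94 to 1.04. It rested on 7 to 23 values per library. Only values close to a gene's lowest were used, so it could not have shown a large difference in depth. Differences are log2 differences of FPKM + 1, and genes near 1 FPKM change by more than such values show. The threshold for a call was a limma p under 0.05 after Benjamini-Hochberg adjustment over 11297 genes. SR9011 replicate 1 lay farthest from its group of the 24 libraries, with a mean squared deviation of 0.0192 on the log2 scale over those genes, against 0.00346 to 0.0119 in the other libraries. Of 12 stellate cell and fibroblast markers, 11 were in the table, Lrat being the absent one, and 9 averaged at least 1 FPKM. Des, the intermediate filament desmin, reached at most 0.39 FPKM, and Reln was listed at 0 in every library. The highest means in this list were those of Col1a1, Col1a2, Dcn and Vim, at 1397, 1181, 777 and 730 FPKM. The summed stellate markers were 2825 to 2979 FPKM with SR9011+TGFb, 5125 to 5830 with CLK8+TGFb, 4960 to 5077 with SB431542+TGFb, 5512 to 6196 with TGFb, 1728 to 2160 with SR9011, 4222 to 4393 with CLK8, 4639 to 5039 with SB431542 and 5033 to 5140 with vehicle. All 6 mesothelial markers averaged over 1 FPKM, and their sum was 149 to 169 FPKM with SR9011+TGFb, 126 to 147 with CLK8+TGFb, 546 to 623 with SB431542+TGFb, 268 to 281 with TGFb, 170 to 257 with SR9011, 234 to 278 with CLK8, 656 to 674 with SB431542 and 551 to 569 with vehicle. In libraries with TGFb, SR9011 or CLK8 alone both sums lay outside the vehicle range, as did the mesothelial sum with SB431542 alone, and their part in the synthetase results was not tested. In bulk RNA, fewer cells of a type and less RNA per cell cannot be told apart. Markers of other liver cells were low: the 4 hepatocyte markers in the table summed to at most 0.25 FPKM, the 4 macrophage markers to 3.34, the 6 endothelial markers to 3.38 and the 4 cholangiocyte markers to 11.4.

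All 36 synthetase genes passed the filter on low values, and the compartments differed in level. Over all libraries the cytosolic genes averaged 22.9 FPKM (Wars, for tryptophan) to 207 FPKM (Aars, for alanine), with a median of 72.4. The mitochondrial genes averaged 2.72 FPKM (Wars2) to 30.9 FPKM (Iars2, for isoleucine), with a median of 8.31. Pairs were formed by symbol, as with Aars and Aars2, and Ears2, Fars2 and Pars2 had no partner by symbol. The cytosolic partner was the higher one in all 13 pairs in vehicle libraries. There the ratio of levels ran from 1.65 (Iars over Iars2) to 37.3 (Nars over Nars2, for asparagine). Gars and Kars, for glycine and lysine, are known to code for both the cytosolic and the mitochondrial enzyme from 1 gene. The levels by group showed the cytosolic genes moving more than the mitochondrial ones. The ratio of the highest to the lowest group mean was 1.13 to 2.25 for the cytosolic genes (median 1.78) and 1.19 to 2.06 for the mitochondrial genes (median 1.4).

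**Figure D1:**
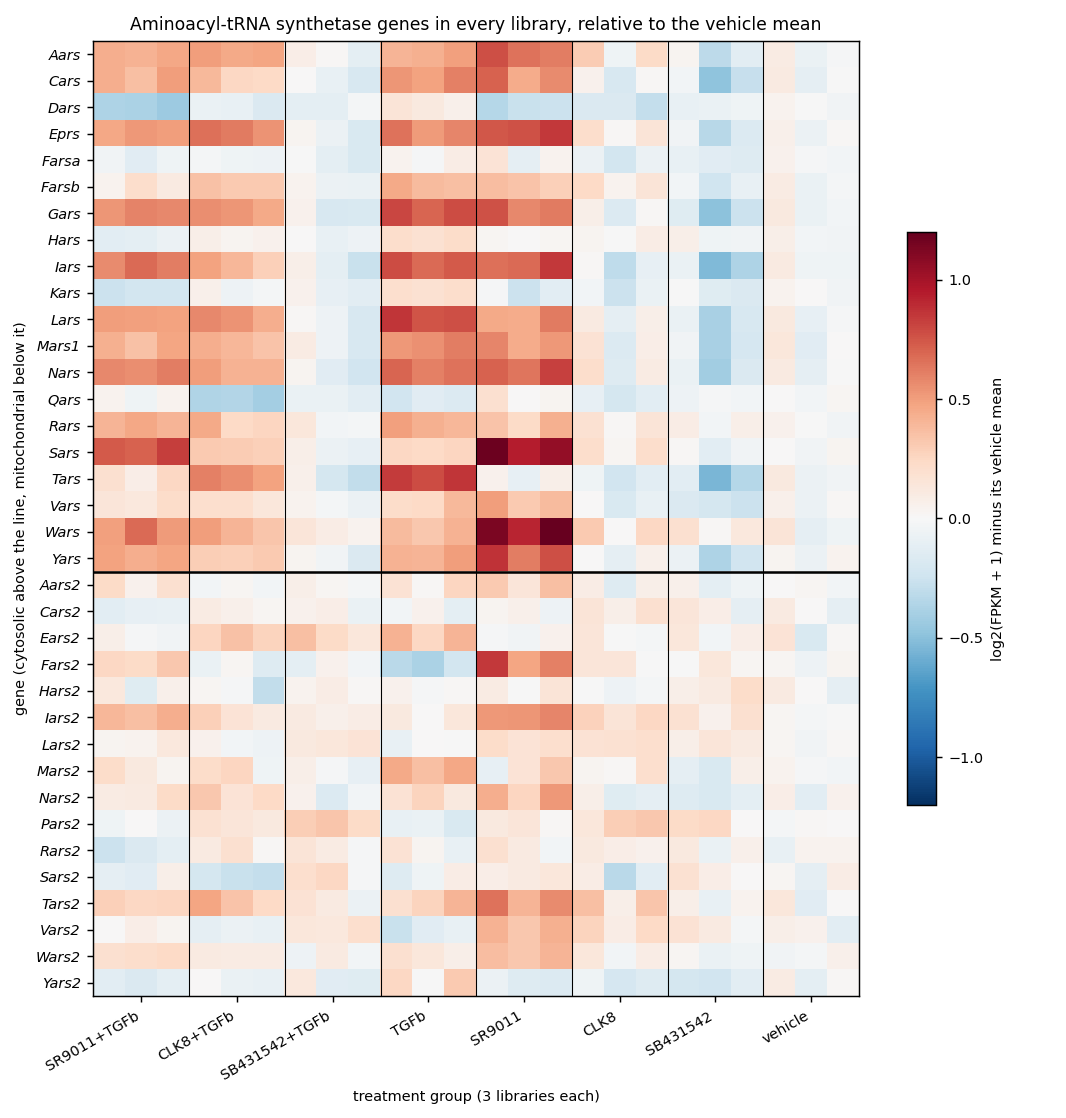
Level of each of the 36 synthetase genes in each of the 24 libraries, as log2(FPKM + 1) minus the gene's vehicle mean (colour, red higher, blue lower), with cytosolic genes above the line, mitochondrial genes below it, and vehicle libraries at the right. Most cytosolic genes are red in the TGFb and SR9011 libraries, where 11 and 9 of the 20 have their highest mean, some by a narrow margin. The SB431542 libraries hold the lowest mean of 14 of the cytosolic genes.

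Summed over the 20 cytosolic genes, the level was 2111 ± 99.6 FPKM with SR9011 and 2062 ± 42.6 FPKM with TGFb, against 1493 ± 75.3 FPKM with vehicle (SD, n = 3 each). With both agents the sum was 1890 ± 28.3 FPKM (SD, n = 3), below that of either agent given alone. CLK8+TGFb gave 1867 ± 57.0, SB431542+TGFb 1429 ± 95.5, CLK8 1500 ± 120.0 and SB431542 1334 ± 108 FPKM (SD, n = 3 each). By highest group mean, 11 cytosolic genes peaked with TGFb and the other 9 with SR9011. Some of these were near ties, such as Iars at 73.19 ± 2.61 FPKM with TGFb and 73.17 ± 5.54 FPKM with SR9011 (SD, n = 3 each). TGFb was not tested against SR9011. The mitochondrial sum moved within a narrower range, with 176.3 ± 5.91 FPKM with SR9011 as its highest mean and 142.0 ± 4.79 FPKM with vehicle as its lowest (SD, n = 3 each).

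TGFb against vehicle asked how the cytokine alone moved the synthetases. The cytosolic set rose nearly as a whole: 18 of 20 genes were called higher and 1 lower, where 20.5% of all tested genes were called higher and 34.4% lower. The median log2 difference was 0.44 for the cytosolic genes, 0.06 for the mitochondrial genes and -0.05 for all tested genes. Threonine, leucine and glycine synthetases rose most. Tars, for threonine, had 142, 136 and 143 FPKM in TGFb libraries, against 85.3, 75.1 and 76.2 FPKM in vehicle libraries. Its groups did not overlap, and TGFb libraries averaged 1.78 times the vehicle mean (log2 0.82, SE 0.089, limma adjusted p = 5.64e-08).

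Lars, for leucine, had 68.3, 63.5 and 64.5 FPKM in TGFb libraries, against 40.5, 34.6 and 36.8 FPKM in vehicle libraries. The ratio of means was 1.75, again with no overlap (log2 0.80, SE 0.075, limma adjusted p = 5.16e-09). Gars, for glycine, had 239, 223 and 236 FPKM in TGFb libraries, against 148, 129 and 134 FPKM in vehicle libraries. Every TGFb library thus lay above every vehicle library, with a ratio of means of 1.70 (log2 0.76, SE 0.079, limma adjusted p = 2.77e-08). Iars followed at log2 0.73, Nars at 0.65, Eprs at 0.58 and Mars1, for methionine, at 0.56. Eprs codes for a fused enzyme that charges both glutamate and proline. The smallest called cytosolic rises were in Dars at 0.11, Kars at 0.20 and Hars at 0.20, for aspartate, lysine and histidine. Farsa, the alpha subunit of the phenylalanine enzyme, was not called (log2 0.04, limma adjusted p = 0.587), while Farsb, its beta subunit, rose by log2 0.40.

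The single cytosolic fall with TGFb was in Qars, for glutamine. Qars had 44.8, 47.9 and 46.9 FPKM in TGFb libraries, against 52.9, 51.5 and 53.6 FPKM in vehicle libraries. The groups did not overlap and the log2 difference was -0.17 (SE 0.046, limma adjusted p = 0.00256), but after rescaling to TPM its limma adjusted p was 0.0501. Of 16 mitochondrial genes 5 were called higher (Mars2 at log2 0.43, Ears2 at 0.36, Tars2 at 0.29, Nars2 and Yars2 at 0.19 each) and 2 lower. With 20.5% of all tested genes called higher and 34.4% lower, 5 of 16 is not far above the background and 2 of 16 is below it. Fars2, for phenylalanine, had 7.48, 7.19 and 8.15 FPKM in TGFb libraries, against 9.83, 9.17 and 9.90 FPKM in vehicle libraries. All TGFb values were thus the lower ones (log2 -0.31, SE 0.075, limma adjusted p = 0.00154). Vars2, for valine, had 7.41, 8.23 and 8.52 FPKM in TGFb libraries, against 9.65, 9.52 and 8.27 FPKM in vehicle libraries. Its groups overlapped, and its call at log2 -0.16 (limma adjusted p = 0.0311) was lost under TPM, quantile normalization, a fit of the compared groups alone, and without TGFb replicate 1, vehicle replicate 1 or vehicle replicate 2, where the adjusted p ran from 0.0548 to 0.181.

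**Figure D2:**
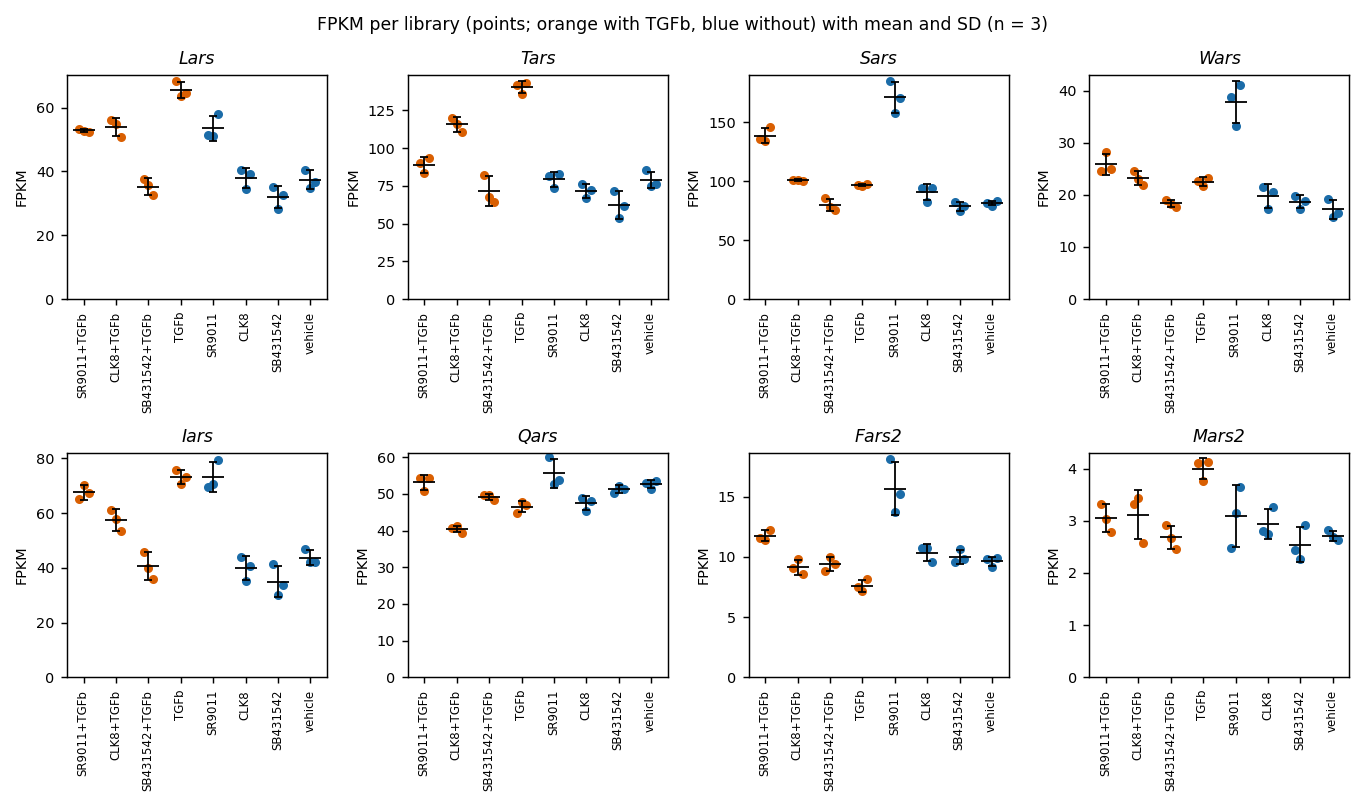
FPKM of 6 cytosolic genes (Lars, Tars, Sars, Wars, Iars, Qars) and 2 mitochondrial genes (Fars2, Mars2) in each library (points, orange with TGFb, blue without) of the 8 groups, with the group mean as a dash and the SD as a bar (n = 3), on linear axes from 0 that differ between panels. Tars is high in all 3 TGFb libraries and near the vehicle level in all 3 SR9011 libraries, whereas Sars and Wars are highest with SR9011.

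The stretches before and around the starts of these genes were searched because most cytosolic genes were called higher with TGFb. ATF4 is known to bind a composite C/EBP-ATF element. RefSeq windows on GRCm38.p6, from 250 bases before to 50 bases after a start, were searched for 12 cytosolic and 14 mitochondrial members. Cars, Hars, Lars, Nars, Rars, Vars, Wars, Hars2 and Pars2 are not among them. The letters TGATGNAA, sought on both strands, stood in the windows of 4 of the 12 cytosolic members and 0 of the 14 mitochondrial members. They stood in a window of 4.51% of all 27025 genes with windows, and in 3.97% of their 32851 windows. The members with a match were Tars, Gars, Iars and Yars. The 30 bases around each match are shown on the gene's strand, with the match in capitals.
Tars: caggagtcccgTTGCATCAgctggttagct
Gars: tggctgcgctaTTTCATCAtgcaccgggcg
Iars: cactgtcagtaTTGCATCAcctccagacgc
Yars: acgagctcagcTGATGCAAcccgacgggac
These windows are chr15:11399609-11399908 (Tars, minus strand), chr6:55037751-55038050 (Gars, plus strand), chr13:49681880-49682179 (Iars, plus strand) and chr4:129189653-129189952 (Yars, plus strand), all on GRCm38.p6. Counted from its first base in the window, the match stood 15 bases before the start in Tars, 30 before in Gars, 7 after in Iars and 3 after in Yars, for tyrosine. In Yars the match was on the gene's own strand, and the other 3 matches were on the opposite strand. The E-box CACGTG, the element of CLOCK and BMAL1 but also of other factors, was in the windows of 3 of 12 cytosolic members, Farsb, Iars and Tars. It was also in that of 1 of 14 mitochondrial members, Ears2, against 8.09% of all genes with windows and 7.15% of all windows. A match is a run of letters, and binding was not measured.

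**Figure D3:**
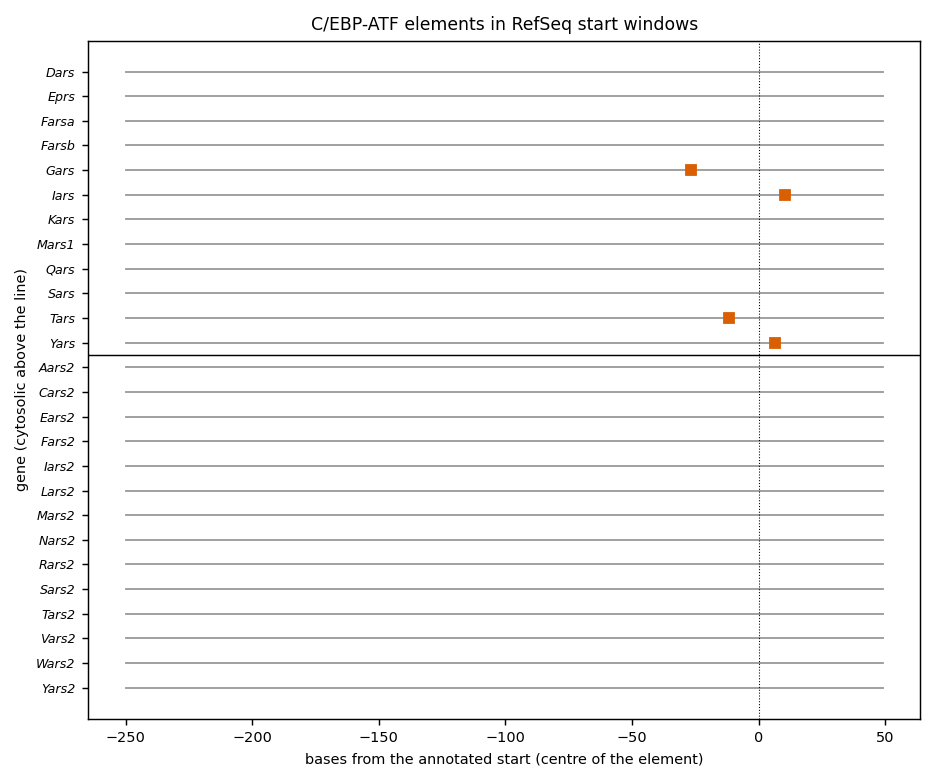
Position of the letters TGATGNAA on either strand (squares, centre of the match) in the RefSeq start windows of 12 cytosolic (above the line) and 14 mitochondrial members, in bases from the annotated start (dotted line). Matches stand in Gars, Iars, Tars and Yars, and in 0 of the mitochondrial windows.

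Side by side, the 4 members with the letters had a median log2 difference of 0.75 with TGFb against vehicle, and the 8 without had 0.22. With SR9011 against vehicle the medians were 0.69 and 0.20, and the 4 with the letters ran from 0.01 (Tars) to 0.75 (Yars). Sars, for serine, has no match in its window and had one of the largest SR9011 differences. No test was run on this split.

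SR9011 against vehicle asked how the REV-ERB agonist alone moved the same genes. The rise again covered most cytosolic genes, 14 of 20 called higher and 1 lower, and it reached the mitochondrial set, where 8 of 16 were called higher and 0 lower. Of all tested genes, 40.7% were called higher and 28.3% lower, so 8 of 16 is not far above the background. The median log2 difference was 0.51 for the cytosolic genes, 0.16 for the mitochondrial genes and 0.06 for all tested genes. Without SR9011 replicate 1, 23 members were called higher and 2 lower, against 22 and 1 with it.

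Tryptophan and serine synthetases led. Wars had 38.8, 33.3 and 41.2 FPKM in SR9011 libraries, against 19.3, 15.8 and 16.6 FPKM in vehicle libraries. That is 2.19 times the vehicle mean with no overlap (log2 1.09, SE 0.083, limma adjusted p = 7.00e-11). Sars had 185, 158 and 170.1 FPKM in SR9011 libraries, against 81.8, 79.3 and 83.2 FPKM in vehicle libraries. Its SR9011 mean was 2.10 times the vehicle mean (log2 1.06, SE 0.058, limma adjusted p = 2.06e-13). Eprs had 147, 148 and 158 FPKM in SR9011 libraries, against 90.6, 82.6 and 87.8 FPKM in vehicle libraries. It rose 1.73-fold without overlap (log2 0.79, SE 0.066, limma adjusted p = 3.27e-10). Yars at log2 0.75, Iars at 0.73, Nars at 0.72, Aars at 0.68 and Gars at 0.66 came next.

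Tars, which led the TGFb response, was level with vehicle under SR9011. It had 81.7, 73.7 and 82.8 FPKM in SR9011 libraries, against 85.3, 75.1 and 76.2 FPKM in vehicle libraries. The log2 difference was 0.01, with a 95% interval of -0.17 to 0.19 (limma adjusted p = 0.927), an interval that lies below the 0.82 seen with TGFb. Hars at log2 0.02, Farsa at 0.03, Qars at 0.07 and Kars at -0.13 were not called either, with limma adjusted p from 0.0641 to 0.744. Dars was the only cytosolic gene called lower with SR9011 at this threshold. It had 62.5, 65.9 and 66.6 FPKM in SR9011 libraries, against 82.1, 79.3 and 77.3 FPKM in vehicle libraries. The groups did not overlap (log2 -0.29, SE 0.043, limma adjusted p = 3.07e-06).

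Among the mitochondrial genes Fars2 rose most with SR9011. It had 18.1, 13.7 and 15.2 FPKM in SR9011 libraries, against 9.83, 9.17 and 9.90 FPKM in vehicle libraries. This was a 1.63-fold difference (log2 0.64), and replicate 1 held the highest value. Iars2 at log2 0.55 and Tars2 at 0.54 followed, then Nars2 at 0.40, Vars2 at 0.39, Wars2 at 0.37, Aars2 at 0.27 and Lars2 at 0.19. Fars2 and Vars2 had thus been called lower with TGFb and were called higher with SR9011, and both comparisons share the vehicle libraries. The cytosolic to mitochondrial ratio of threonine enzymes, Tars over Tars2, was 4.37 with SR9011 and 9.31 with TGFb, against 6.47 with vehicle. For serine, Sars over Sars2 was 22.7 with SR9011 and 14.5 with TGFb, against 11.8 with vehicle.

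With both agents, the test of the interaction asked whether TGFb and SR9011 added up on the log2 scale. They did not for most cytosolic genes: 18 of 20 had a negative interaction past the threshold and 0 a positive one, where 16.6% of all tested genes had a positive and 15.3% a negative interaction. The cytosolic median was -0.66, against 0.01 for all tested genes. Wars had the largest interaction at log2 -0.90 (SE 0.118, limma adjusted p = 4.96e-06), followed by Eprs at -0.87 (SE 0.093, limma adjusted p = 3.70e-07) and Gars at -0.85 (SE 0.112, limma adjusted p = 5.42e-06). Farsa and Qars were the cytosolic genes not called. Of the mitochondrial genes 7 had a negative interaction, led by Tars2 at -0.57 and Nars2 at -0.44. Without SR9011 replicate 1, 25 members again had a negative interaction and 1 a positive one.

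Set against SR9011 alone, SR9011+TGFb raised 0 members and lowered 17, 9 cytosolic and 8 mitochondrial, where 14.3% of all tested genes were called higher and 31% lower. At 17 of 36 the share lowered was not far above that background, and after rescaling to TPM the count lowered was 10. Wars had 24.6, 28.2 and 24.9 FPKM in SR9011+TGFb libraries, against 38.8, 33.3 and 41.2 FPKM in SR9011 libraries. The groups did not overlap (log2 -0.52, SE 0.083, limma adjusted p = 1.88e-05). Fars2 fell by 0.38 and Vars2 by 0.35 on the log2 scale. Tars had 89.99, 83.4 and 93.6 FPKM in SR9011+TGFb libraries, against 81.7, 73.7 and 82.8 FPKM in SR9011 libraries. Its difference of log2 0.16 had a 95% interval of -0.02 to 0.35 and was not called (limma adjusted p = 0.144).

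Set against TGFb alone, SR9011+TGFb raised 5 members and lowered 11, where 36.8% of all tested genes were called higher and 24% lower. After rescaling to TPM the split was 3 higher and 16 lower. Tars had 89.99, 83.4 and 93.6 FPKM in SR9011+TGFb libraries, against 142, 136 and 143 FPKM in TGFb libraries. It showed the largest fall (log2 -0.65, SE 0.089, limma adjusted p = 1.35e-06), with no overlap. Dars had 61.4, 60.7 and 58.7 FPKM in SR9011+TGFb libraries, against 88.5, 86.5 and 83.0 FPKM in TGFb libraries. It fell by 0.51 on the log2 scale (SE 0.043, limma adjusted p = 6.96e-10), and Kars by 0.43 (SE 0.063, limma adjusted p = 2.88e-06). Sars moved the other way, with 136, 134 and 145 FPKM in SR9011+TGFb libraries, against 96.7, 96.2 and 97.3 FPKM in TGFb libraries. Every SR9011+TGFb value was the higher one (log2 0.51, SE 0.058, limma adjusted p = 7.75e-08). Fars2 rose by log2 0.57 and Iars2 by 0.31. Aars, Iars, Yars, Nars, Eprs and Rars were not called here, with log2 differences from -0.11 to 0.02.

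**Figure D4:**
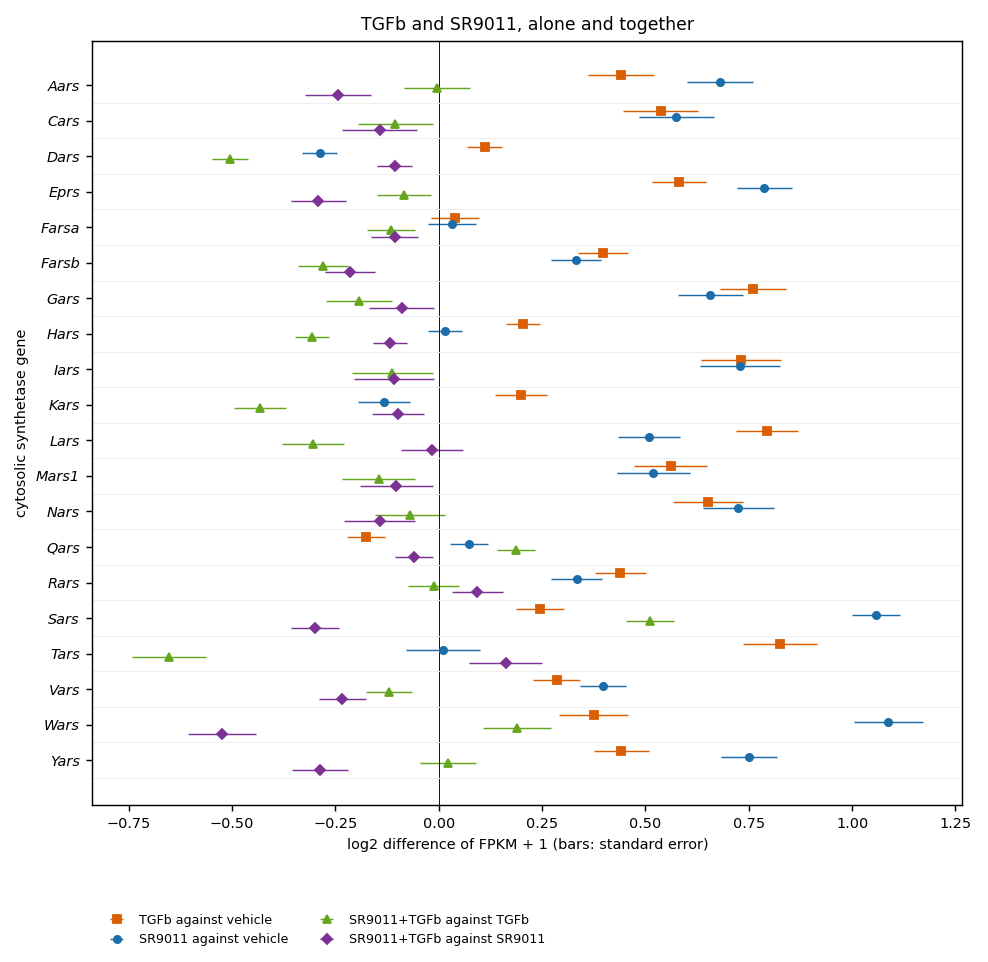
Log2 difference of FPKM + 1 (points, with the standard error as bars) of each of the 20 cytosolic genes for TGFb and SR9011 against vehicle, SR9011+TGFb against TGFb and SR9011+TGFb against SR9011. Tars lies at 0.82 with TGFb and 0.01 with SR9011 against vehicle, and Wars at 0.38 with TGFb and 1.09 with SR9011; the comparisons share libraries.

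SB431542+TGFb against TGFb asked what the TGFb receptor inhibitor did to these levels. It lowered 19 of 20 cytosolic genes and raised 0, where 38.3% of all tested genes were called higher and 21.4% lower. The cytosolic median was -0.44, against 0.07 for all tested genes. Tars had 82.5, 67.9 and 64.0 FPKM in SB431542+TGFb libraries, against 142, 136 and 143 FPKM in TGFb libraries. The groups lay far apart, at 0.509 times the TGFb mean (log2 -0.97, SE 0.089, limma adjusted p = 3.09e-09). Lars fell by 0.88 (SE 0.075, limma adjusted p = 7.77e-10), Gars by 0.87 (SE 0.079, limma adjusted p = 2.34e-09) and Iars by 0.84 on the log2 scale. Qars, which TGFb had lowered, was not called (log2 0.08, limma adjusted p = 0.148). Of the mitochondrial genes 4 were called higher and 4 lower. Pars2, for proline, had 5.76, 5.91 and 5.44 FPKM in SB431542+TGFb libraries, against 4.16, 4.20 and 3.85 FPKM in TGFb libraries. It rose without overlap (log2 0.40, SE 0.063, limma adjusted p = 9.26e-06), and Vars2 rose by 0.32 and Fars2 by 0.27. Under quantile normalization the Fars2 call was lost (limma adjusted p = 0.0580).

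With the inhibitor present, TGFb moved few synthetases. SB431542+TGFb against SB431542 raised 1 member, Vars, and lowered 0, where 2.01% of all tested genes were called higher and 2.35% lower. At an unadjusted p under 0.05 there were 6 members, a count with no matching share over all tested genes given here. Vars had 103, 98.8 and 95.5 FPKM in SB431542+TGFb libraries, against 88.8, 86.3 and 83.5 FPKM in SB431542 libraries. The groups did not overlap (log2 0.20, SE 0.056, limma adjusted p = 0.0435), but the count of members was 0 with no filter on low values, without trend or robust moderation, and without SB431542+TGFb replicate 1 or 2 or SB431542 replicate 2 or 3, and 3 without SB431542 replicate 1. Tars differed by log2 0.19 (95% interval 0.01 to 0.38, limma adjusted p = 0.270), Gars by 0.19 (0.03 to 0.36, limma adjusted p = 0.207) and Lars by 0.14 (-0.01 to 0.30, limma adjusted p = 0.359), all below the 0.76 to 0.82 seen without the inhibitor. The interaction tested that difference: 15 of 20 cytosolic genes were negative past the threshold, where 12.8% of all tested genes were negative and 21.5% positive. Lars at -0.65 (SE 0.106, limma adjusted p = 4.33e-05), Tars at -0.63 (SE 0.126, limma adjusted p = 4.69e-04) and Gars at -0.57 (SE 0.112, limma adjusted p = 4.02e-04) led. Mars2 was the negative mitochondrial gene at -0.37, and Pars2 and Vars2 were positive at 0.24 and 0.23. Neither positive call was stable: that of Vars2 was lost under 14 of 21 alternatives, the replicate block (limma adjusted p = 0.0584), TPM and quantile normalization among them, and that of Pars2 under 10 of 21, TPM and quantile normalization among them, with adjusted p of 0.0507 to 0.151 where a call was lost. Over all members this made 2 positive and 16 negative, 0 and 17 after rescaling to TPM, and the count past the threshold was 10 without vehicle replicate 2 and 11 without SB431542+TGFb replicate 3, against 18 with all libraries.

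SB431542 against vehicle, with no TGFb added, lowered 7 cytosolic genes and raised 0, where 11.9% of all tested genes were called higher and 5.05% lower. They were Tars at log2 -0.34, Iars at -0.32, Gars at -0.30, Cars at -0.27, and Yars, Lars and Vars at -0.22 each. Tars had 71.9, 53.5 and 61.9 FPKM in SB431542 libraries, against 85.3, 75.1 and 76.2 FPKM in vehicle libraries. The groups did not overlap, with the highest SB431542 value just under the lowest vehicle value (limma adjusted p = 0.00943). Iars had 41.3, 30.1 and 33.6 FPKM in SB431542 libraries, against 47.0, 41.98 and 42.2 FPKM in vehicle libraries (limma adjusted p = 0.0234). Gars had 124, 97.0 and 114 FPKM in SB431542 libraries, against 148, 129 and 134 FPKM in vehicle libraries (limma adjusted p = 0.0100). For both, SB431542 replicate 1 came closest to the vehicle range. The calls of Tars, Iars and Gars were each lost without vehicle replicate 1 and without SB431542 replicate 2, that of Iars also without SB431542 replicate 3, and those of Tars and Iars when only SB431542 and vehicle libraries were fitted. The count depended on single libraries: it was 0 without vehicle replicate 1, 4 without vehicle replicate 3, 2 without SB431542 replicate 2 and 3 without SB431542 replicate 3. It was 2 when the compared groups were fitted alone and 12 with the replicate number as a block, 1 higher and 11 lower.

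CLK8 alone moved the cytosolic genes little. CLK8 against vehicle called 1 cytosolic gene higher and 2 lower and 5 mitochondrial genes higher, where 30.3% of all tested genes were called higher and 13.6% lower. With 6 of 36 members higher and 2 lower, both shares were below that background. Tars2 had 15.96, 12.8 and 15.6 FPKM in CLK8 libraries, against 13.4, 10.97 and 12.2 FPKM in vehicle libraries. The ranges overlapped (log2 0.26, SE 0.086, limma adjusted p = 0.0200), and the call was lost under quantile normalization and without CLK8 replicate 1, CLK8 replicate 3 or vehicle replicate 2. Pars2 had 5.06, 5.75 and 5.90 FPKM in CLK8 libraries, against 4.43, 4.57 and 4.51 FPKM in vehicle libraries. All its CLK8 values were above the vehicle values (log2 0.25, SE 0.063, limma adjusted p = 0.00247), as were those of Iars2 (log2 0.23, SE 0.050, limma adjusted p = 7.25e-04). Dars had 70.5, 70.6 and 65.0 FPKM in CLK8 libraries, against 82.1, 79.3 and 77.3 FPKM in vehicle libraries. It fell by 0.21 (SE 0.043, limma adjusted p = 3.98e-04) and Qars by 0.15 (SE 0.046, limma adjusted p = 0.0126) on the log2 scale. The Qars call was lost without CLK8 replicate 2 or vehicle replicate 3, and that of Pars2 under quantile normalization (limma adjusted p = 0.0504). Quantile normalization gave 1 higher and 5 lower in place of 6 and 2, the replicate block gave 13 calls, and 5 were left without CLK8 replicate 3 or vehicle replicate 3.

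TGFb still raised the cytosolic genes in the presence of CLK8. CLK8+TGFb against CLK8 called 15 of 20 higher and 1 lower, where 17.3% of all tested genes were called higher and 34.6% lower. Tars had 120.1, 116 and 111 FPKM in CLK8+TGFb libraries, against 76.2, 67.2 and 71.9 FPKM in CLK8 libraries. It was again the largest rise (log2 0.68, SE 0.089, limma adjusted p = 9.63e-07), before Gars at 0.54 (SE 0.079, limma adjusted p = 4.94e-06) and Iars at 0.52 (SE 0.097, limma adjusted p = 1.15e-04). Qars fell by 0.23, Vars2 by 0.29 and Lars2 by 0.20 on the log2 scale, and after rescaling to TPM the Lars2 call was lost (limma adjusted p = 0.0754). The interaction of CLK8 with TGFb called 1 member, Hars at -0.19 (SE 0.058, limma adjusted p = 0.0476), where 3.39% of all tested genes were negative and 4.58% positive. At an unadjusted p under 0.05 there were 7 members, again with no matching share over all tested genes given, and the cytosolic median was -0.15. The count was 2 without CLK8 replicate 2 or without vehicle replicate 1, 3 with the replicate block or in the fit of the compared groups alone, and 0 under TPM, a pseudocount of 0.1, no trend or robust moderation, and without CLK8+TGFb replicate 2 or 3, CLK8 replicate 1 or 3, vehicle replicate 2 or 3 or any TGFb replicate.

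CLK8+TGFb against TGFb lowered 9 cytosolic and 2 mitochondrial genes and raised 2 mitochondrial genes, where 27.7% of all tested genes were called higher and 13.3% lower. Iars had 61.3, 58.0 and 53.4 FPKM in CLK8+TGFb libraries, against 75.7, 70.5 and 73.4 FPKM in TGFb libraries. The fall was log2 -0.34 without overlap (SE 0.097, limma adjusted p = 0.00700). Lars had 56.1, 54.7 and 50.6 FPKM in CLK8+TGFb libraries, against 68.3, 63.5 and 64.5 FPKM in TGFb libraries, a fall of 0.28 (SE 0.075, limma adjusted p = 0.00462). Tars at -0.28 and Gars at -0.25 were also called, while Aars and Eprs at 0.03 each were not. Mars2 fell by 0.28 (SE 0.095, limma adjusted p = 0.0197), and Pars2 and Fars2 rose by 0.26 and 0.24. The Mars2 call was lost under TPM and without TGFb replicate 1, TGFb replicate 3 or CLK8+TGFb replicate 3, where the difference was -0.19 in that last case (limma adjusted p = 0.146). The Fars2 call was lost under quantile normalization, where the difference was 0.16 (limma adjusted p = 0.123), and without CLK8+TGFb replicate 2 or TGFb replicate 2.

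**Figure D5:**
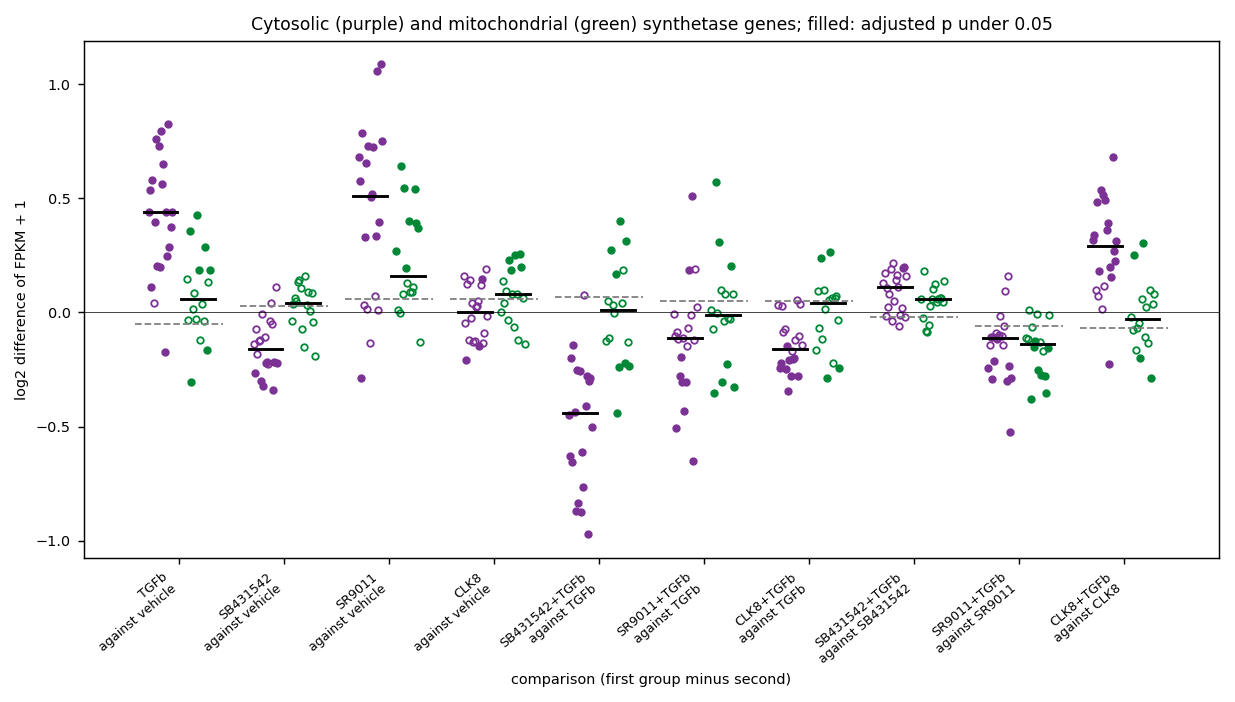
Log2 difference of FPKM + 1 of each synthetase gene (points, purple cytosolic, green mitochondrial, filled where the adjusted p was under 0.05) in 10 comparisons, with the median of each compartment as a black line and of all tested genes as a grey dashed line. The cytosolic medians stand at 0.44 with TGFb and 0.51 with SR9011 against vehicle, at -0.44 with SB431542+TGFb against TGFb, and at 0.29 with CLK8+TGFb against CLK8.

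The clock compounds were also set against each other. SR9011 against CLK8 called 16 of 20 cytosolic genes higher and 0 lower, where 32.5% of all tested genes were called higher and 31.1% lower. Sars had 185, 158 and 170.1 FPKM in SR9011 libraries, against 94.1, 82.7 and 94.4 FPKM in CLK8 libraries. With Wars at 0.90 and Iars at 0.86 it led the differences (log2 0.91, SE 0.058, limma adjusted p = 5.26e-12). Tars was not called (log2 0.14, 95% interval -0.04 to 0.33, limma adjusted p = 0.162), and Pars2 was the single gene lower, at -0.16 (limma adjusted p = 0.0298). The Pars2 call was lost under quantile normalization, in a fit of the compared groups alone, and without CLK8 replicate 2, CLK8 replicate 3 or SR9011 replicate 3, with adjusted p of 0.0960 to 0.150. With TGFb present the order was mixed: SR9011+TGFb against CLK8+TGFb called 7 members higher and 9 lower, where 28.5% of all tested genes were called higher and 25.1% lower. The share of the 36 members called higher was below that background, and the share called lower was near it. Leaving out single libraries gave 11 to 14 called members, against 16 with all libraries. Sars at 0.46, Qars at 0.39 and Fars2 at 0.33 were the highest, and Tars at -0.38, Rars2 at -0.29 and Dars at -0.28 the lowest. Rescaling to TPM gave 3 higher and 15 lower, and it moved the median over all tested genes to -0.10, against 0.01 without it. Doses are unknown for both compounds.

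Several cytosolic synthetases sit in the multisynthetase complex, a large assembly held together by the scaffold proteins Aimp1, Aimp2 and Eef1e1. Its 8 enzyme genes here are Dars, Eprs, Iars, Kars, Lars, Mars1, Qars and Rars. With TGFb against vehicle 7 of the 8 were called higher, with a median of log2 0.50, beside 11 of the other 12 cytosolic genes with a median of 0.42, where 20.5% of all tested genes were called higher. With SR9011 against vehicle the counts were 5 of 8 (median 0.42) and 9 of 12 (median 0.62), where 40.7% of all tested genes were called higher. Of the 8 enzyme genes 1 was called lower with each agent, and of the other 12 cytosolic genes 0. Of the 3 scaffolds, 2 were called higher and 0 lower with TGFb, and 0 higher and 1 lower with SR9011. Of all tested genes, 34.4% were called lower with TGFb and 28.3% with SR9011, so 1 of 3 with SR9011 is near the background. Eef1e1 averaged 40.7 ± 1.87 FPKM with TGFb and 27.4 ± 1.43 FPKM with vehicle (SD, n = 3 each, log2 0.56, limma adjusted p = 8.03e-06). With SR9011 it differed from vehicle by 0.14 and was not called (limma adjusted p = 0.142). Aimp1 was not called with either agent, at 0.02 with TGFb (limma adjusted p = 0.725) and 0.08 with SR9011 (limma adjusted p = 0.159). Aimp2 rose by 0.16 with TGFb (limma adjusted p = 0.0441) and fell with SR9011, where it averaged 45.0 ± 4.78 FPKM, against 61.2 ± 1.25 FPKM with vehicle (SD, n = 3 each, log2 -0.44, limma adjusted p = 2.90e-06).

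Other genes around tRNA charging were followed as lists. Of 32 genes of the integrated stress response, 31 were tested. With TGFb against vehicle 23 were called higher and 1 lower (median log2 0.61), and with SR9011 against vehicle 29 were higher and 0 lower (median 1.04). Of all tested genes, 20.5% were called higher and 34.4% lower with TGFb, and 40.7% higher and 28.3% lower with SR9011. SB431542+TGFb against TGFb called 1 higher and 24 lower (median -0.63), where 38.3% of all tested genes were called higher and 21.4% lower. Atf4 averaged 437 ± 9.55 FPKM with TGFb, 531 ± 18.4 FPKM with SR9011 and 270 ± 12.4 FPKM with vehicle (SD, n = 3 each). Its log2 differences from vehicle were 0.69 with TGFb (limma adjusted p = 5.84e-08) and 0.97 with SR9011 (limma adjusted p = 9.44e-11), and its interaction was -0.82 (limma adjusted p = 4.91e-06). Asns, for asparagine synthesis, rose by 0.93 with TGFb and 1.04 with SR9011. Ddit3, which codes for the stress factor CHOP, averaged 37.4 ± 1.25 FPKM with TGFb, 242 ± 41.5 FPKM with SR9011 and 36.8 ± 2.83 FPKM with vehicle (SD, n = 3 each). It was not called with TGFb (log2 0.03, limma adjusted p = 0.850) and rose by 2.67 with SR9011 (limma adjusted p = 9.82e-16). Trib3, a CHOP and ATF4 target, rose by 1.19 with TGFb and by 2.30 with SR9011.

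With TGFb against vehicle, Xpot, the export receptor that carries tRNA out of the nucleus, averaged 54.8 ± 1.80 FPKM with TGFb and 30.4 ± 3.06 FPKM with vehicle (SD, n = 3 each, log2 0.83, limma adjusted p = 3.68e-09). It rose by 0.92 with SR9011 (limma adjusted p = 3.17e-10). The rest of its list of 17 tested tRNA processing and export genes moved less, with 6 called higher and 1 lower with TGFb (median 0.05) and 8 higher and 2 lower with SR9011 (median 0.08), Xpot included. Of 10 editing and accessory charging genes, 1 was higher and 2 lower with TGFb, and 7 were higher and 1 lower with SR9011. Of 5 cytosolic elongation factors, 1 was higher with TGFb and 4 with SR9011, with 0 lower in both. Of 9 mitochondrial translation factors, 1 was higher and 1 lower with TGFb and 5 higher and 1 lower with SR9011. Of 8 mitochondrial chaperones and proteases, 3 were higher and 0 lower with TGFb, and 6 higher and 1 lower with SR9011 (median 0.56). Of 13 genes for the eIF2 kinases, eIF2 and eIF2B, 8 were higher and 1 lower with TGFb and 7 higher and 2 lower with SR9011. Of all tested genes, 20.5% were called higher and 34.4% lower with TGFb, and 40.7% higher and 28.3% lower with SR9011. The SR9011 counts higher of 8 of 17, 5 of 9 and 7 of 13 thus lay near the background. The TGFb counts higher of 1 of 10, 1 of 5 and 1 of 9 lay at or below it. All counts of genes called lower in these lists were below the background.

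Some members share genome with a measured neighbour, and the sources used here do not say if reads were counted by strand. Mars1 (chromosome 10, 127296221 to 127311786, minus strand, GRCm38) overlaps Ddit3 by 68 bases on the other strand. Aars (chromosome 8, 111033144 to 111057664, plus strand) overlaps Exosc6 by 1326 bases on the same strand, and 12.8% of the 100-base windows of its transcripts also occur in Exosc6 transcripts. Farsb overlaps Sgpp2 by 2315 bases, Wars overlaps Wdr25 by 544, Hars and Hars2 overlap by 198, Yars and C77080 by 30, Cars2 and Naxd by 984, Ears2 and Ubfd1 by 89 and Iars2 and Rab3gap2 by 2034, each on opposite strands. Fars2 overlaps Nrn1 by 920 bases and Lyrm4 by 115, both also on the other strand. Nrn1 averaged 22.5 FPKM over all libraries and Lyrm4 7.83. Reads in these stretches cannot be assigned with certainty to either gene. Tars (chromosome 15, 11382301 to 11399665, minus strand), Gars (chromosome 6, 55038007 to 55079500, plus strand) and Dars (chromosome 1, 128363707 to 128417368, minus strand) overlap no annotated gene.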

How the data were processed

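RNA from 24 EMS404 libraries (8 groups of 3) was sequenced. RNA was extracted with either of 2 kits, chosen by sample abundance per the labels' protocols, and which sample had which kit is unknown. Samples with low RNA integrity had been discarded. The tools named in the submitters' processing notes are HISAT2 2.0.4, Bowtie2 2.2.5, RSEM and DESeq2, with genome build mm10. The authors deposited FPKM values with 2 decimals for 16620 lines, and all 24 columns were mapped to samples by name. The library names give DMSO for the samples whose label is untreated, which are called vehicle. The 16 lines of 8 identifiers that occur on 2 lines (of 16612 identifiers) were not used. Symbols and positions came from GENCODE M21 (GRCm38), and RefSeq supplied the start windows. The windows of 12 cytosolic and 14 mitochondrial members were searched, and that of 1 further cytosolic member is not reported here.

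A gene was tested if 3 libraries or more reached an FPKM of 1. The test was limma 3.58.1 (R 4.3.3) on log2(FPKM + 1) with the trend and robust options. The 8 groups entered 1 model with 16 residual degrees of freedom, and moderation brought the median to 22.6. P-values are 2-sided and adjusted by Benjamini-Hochberg over all tested genes of each of 15 comparisons. The median SE was 0.064 between groups and 0.090 for an interaction. The fit was tried on simulated data for SR9011 against vehicle with 11062 genes. It called 95 of 100 genes changed by log2 0.5 and 100 of 100 changed by log2 1. These 200 genes were drawn from those above a minimum vehicle level, and all other genes were left unchanged. The trial thus does not cover genes below that level or a comparison in which most genes differ. Alternatives changed the pseudocount to 0.1 or 0.5, dropped the filter or raised it to an FPKM of 5, rescaled to TPM, or used quantile normalization, no trend or robust moderation, the compared groups alone, a replicate block, and leaving out each library. Values in every library are given for up to 3 called members with the largest rise and fall in a comparison, and some follow as log2 differences only. Members, lists and tests were chosen with earlier results of these data known. The 8 enzymes of the complex and the promoter letters were chosen after values were seen.

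Replicate numbers were checked for pairing by the correlation of residuals of same-numbered libraries. All 3 correlations exceeded 0.1 in 2 of 28 pairs of groups, SB431542+TGFb with SB431542 (0.415, 0.208 and 0.117) and CLK8+TGFb with SB431542+TGFb. The values given for TGFb within SB431542 still come from the fit without pairing, so their p-values do not take it into account. The replicate block was an alternative fitted to all 8 groups at once. It left the count of called members for SB431542+TGFb against SB431542 at 1 and ended the Vars2 call in the SB431542 interaction. Python 3.11.15, pandas 2.3.3, numpy 2.4.6 and matplotlib 3.10.9 were used.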

Additional observations from a re-analysis of the deposited data

Results flagged for a closer look

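The effect of TGFb on a synthetase gene differed with a compound present, by the limma interaction test, in 9 of the named results. With SB431542 the interaction was 0.24 for Pars2, 0.23 for Vars2, -0.65 for Lars, -0.63 for Tars and -0.57 for Gars on the log2 scale. Those of Pars2 and Vars2 had limma adjusted p of 0.0404 and 0.0493. The Pars2 call was lost under 10 of 21 alternatives and the Vars2 call under 14, the replicate block among them (limma adjusted p = 0.0584). With SR9011 it was -0.90 for Wars, -0.87 for Eprs and -0.85 for Gars. With CLK8 it was -0.19 for Hars, with a limma adjusted p of 0.0476, and the call was lost under 13 of 21 alternatives.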

How the results depend on the processing

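Of 64 named member values, tried under 1013 alternative values in all, 933 kept their direction and call, 80 lost the call and 0 reversed. Of 243 alternative counts of called members, 208 stayed within 1.5 times the main count, 28 were lower and 7 higher. With the replicate block the counts were 12 for SB431542 against vehicle, 13 for CLK8 against vehicle and 3 for the CLK8 interaction. The numbers were not shown to pair these groups. The compared groups alone gave 2 for SB431542 against vehicle and 3 for the CLK8 interaction. TPM gave 10 for SR9011+TGFb against SR9011 and 0 for the CLK8 interaction. A pseudocount of 0.1 gave 0 for the CLK8 interaction, no filter gave 0 for SB431542+TGFb against SB431542, and no trend or robust moderation gave 0 for both. Leaving out single libraries gave counts of 0 to 10 for SB431542 against vehicle, 5 to 12 for CLK8 against vehicle, 0 to 3 for SB431542+TGFb against SB431542, 10 to 18 for the SB431542 interaction and 0 to 2 for the CLK8 interaction. The cause of these shifts was not tested. Counts for TGFb and for SR9011 against vehicle stayed between 21 and 28 under every alternative run. Read depth is unknown, so the precision of low mitochondrial genes such as Wars2 cannot be given from counts, and compound doses and the kit of each library are not known.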

Other observations

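In each of the 4 groups without TGFb, the summed cytosolic synthetase level was highest in replicate 1 and lowest in replicate 2. The sums were 2197, 2002 and 2135 FPKM with SR9011, 1598, 1367 and 1537 FPKM with CLK8, 1443, 1227 and 1332 FPKM with SB431542, and 1575, 1427 and 1477 FPKM with vehicle, each for replicates 1, 2 and 3. Among the groups with TGFb, replicate 1 was highest with CLK8+TGFb and SB431542+TGFb and replicate 3 with SR9011+TGFb and TGFb. The labels do not say whether a number marks a shared day or batch, and no test was run on this order.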
